A study of Mus musculus with 768 samples.

Results

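Fos, Fosb, Jun, Junb, Jund, Egr1, Ier2, Dusp1, Zfp36 and Zfp36l2 make up a list, by symbol, of immediate-early AP-1 and Egr genes and their relatives. All 10 were found among the 23127 genes counted in single mouse thymocytes. All mice were C57BL/6, 6 to 8 weeks of age, and their thymus cells lay on 8 plates of 96 cells. Their labels give 4 genotypes: wild type (WT), Tcf7-/-, and Tcf7fl/fl joined to either Vav-cre or Lck-cre. Tcf7 encodes TCF1, a DNA-binding protein that drives early T-cell development, and the series is about what TCF1 does at each stage. Vav-cre is active throughout blood cells and Lck-cre in T-cell precursors, so both delete in the cells where they are active rather than in the whole animal. The DN1 gate took CD45+ Lin- CD4- CD8- CD25- CD44+ cells and gave 1 plate each for WT, Tcf7-/- and Vav-cre. The DN2-3 gate took CD45+ Lin- CD4- CD8- CD25+ cells and gave 1 plate each for WT, Tcf7-/- and Vav-cre and 2 plates for Lck-cre. No label names the animals behind a plate or how many were pooled.

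Immediate-early genes are switched on within minutes of a signal, before any new protein is made. Fos and Jun family proteins pair through leucine zippers to form AP-1, and Egr1 is a zinc-finger activator that reads signals passed down the MAP kinase cascade. Dusp1 removes phosphate from MAP kinases and so shuts the same cascade off, while Zfp36 and Zfp36l2 bind AU-rich messages, those of Fos among them, and speed their decay. In thymocytes immediate-early genes are read as a trace of receptor signalling, and in any tissue they can also be raised by cutting, warming and sorting the cells.

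The stretch before the start site is part of what sets the rapid response of these genes. The 250 bases upstream of the start are shown for the 3 AP-1 genes whose levels differed most between genotypes. They are also shown for Dusp1, which differed in another direction. The RefSeq promoter table (GRCm38.p6) held an entry for 7 of the 10 genes, and none for Egr1, Ier2 and Zfp36l2. Each line below runs 5′ to 3′ on the gene's strand and ends at the base before the RefSeq start. Capitals mark TGACG, the core of a cAMP response element, or the whole element TGACGTCA, searched on both strands. The windows are chr12:85473640-85473889 on the plus strand for Fos, and on the minus strand chr7:19310046-19310295 for Fosb, chr4:95052223-95052472 for Jun and chr17:26508473-26508722 for Dusp1.
Fos: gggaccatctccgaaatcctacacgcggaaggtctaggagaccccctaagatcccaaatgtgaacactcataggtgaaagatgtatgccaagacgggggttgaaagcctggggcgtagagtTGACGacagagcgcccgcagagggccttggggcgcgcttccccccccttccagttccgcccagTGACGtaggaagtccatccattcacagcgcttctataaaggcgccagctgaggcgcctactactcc
Fosb: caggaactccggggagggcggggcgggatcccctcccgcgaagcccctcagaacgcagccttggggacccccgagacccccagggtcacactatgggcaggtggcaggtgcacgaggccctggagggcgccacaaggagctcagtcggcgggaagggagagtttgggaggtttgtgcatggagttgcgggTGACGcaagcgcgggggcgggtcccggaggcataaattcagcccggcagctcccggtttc
Jun: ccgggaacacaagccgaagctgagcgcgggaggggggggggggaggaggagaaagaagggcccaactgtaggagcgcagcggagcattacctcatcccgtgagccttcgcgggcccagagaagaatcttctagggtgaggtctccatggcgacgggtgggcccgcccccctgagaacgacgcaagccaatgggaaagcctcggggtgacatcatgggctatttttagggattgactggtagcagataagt
Dusp1: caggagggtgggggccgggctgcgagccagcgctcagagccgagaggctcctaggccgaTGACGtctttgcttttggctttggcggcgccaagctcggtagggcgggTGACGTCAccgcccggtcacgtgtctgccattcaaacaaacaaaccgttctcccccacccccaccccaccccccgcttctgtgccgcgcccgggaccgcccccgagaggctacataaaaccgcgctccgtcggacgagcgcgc
The Fos window holds the core at 129 and at 66 bases before the start, and the Fosb window holds it at 60. Dusp1 holds the whole element at 143 bases before the start and a separate core at 191. The Jun window has neither. The core stood in 4 of the 7 held promoters (Dusp1, Fos, Fosb and Junb) and in 17.8% of all 32851 windows of that length, and the whole element, which contains it, stood in 1 of 7 and in 1.55%. The AP-1 element TGANTCA was in none of the 7, against 6.75% of all windows. The CArG box, the site of serum response factor, was in 1, Zfp36, against 1.47%. The TCF/LEF core CTTTGA was in none, against 13.8%. These matches describe letters in a window and say nothing of what bound there. Sites further than 250 bases from a start, and any site of Egr1, Ier2 and Zfp36l2, were not searched.

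After removal of cells with fewer than 1000 detected genes, 675 of 768 cells remained, between 58 and 96 a plate. The summed counts of a plate ran from 1547512 in Vav-cre DN1 to 8371808 in Tcf7-/- DN2-3, so Vav-cre DN1 is the least precise library. Levels are in CPM, a gene's summed counts on a plate scaled so that every plate has the same total, intervals are 95% and cover counting error only, and a log2 ratio between plates is taken after adding 10 CPM to both. There is no test between genotypes anywhere in what follows, since a plate is 1 library and cells of a plate are not replicates. The only pair of plates with the same label is Lck-cre, and the 10 genes differed between them by a root mean square of 0.62 on the log2 scale, which serves as the yardstick although no label says that the plates come from different mice. Tcf7 itself stood at 134 CPM in the DN1 cells of WT, 98.6 in those of Tcf7-/- and 368 in those of Vav-cre. In DN2-3 it stood at 862 CPM in WT, 122 in Tcf7-/-, 964 in Vav-cre, and 762 and 658 on the Lck-cre plates. The library labelled Tcf7-/- was thus far below WT in DN2-3 but only slightly in DN1. Tcf7 counts in the plates labelled Vav-cre were not lower than in WT, and the sources used here do not say whether the counted reads lie in the deleted part, so these counts do not check the Vav-cre and Lck-cre labels. The genotype names below are the labels of the plates. Both Tcf7-/- plates also carry other label fields than the rest, so that for this genotype a batch effect and the deletion cannot be told apart.

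The gates held different cells, checked against marker genes. The DN2-3 plates had Il2ra, which encodes CD25, at 225 to 419 CPM and Cd44 at 0 to 4.42. The DN1 plates had Cd44 at 193 to 269 CPM, but few markers of early T-cell progenitors: the 10 of that list summed to 189 CPM in WT, 907 in Tcf7-/- and 792 in Vav-cre, with Cd34 and Mpo at 0 in WT DN1. Far more abundant there were the markers of natural killer (NK) cells and of innate lymphoid cells (ILC). The 15 ILC markers summed to between 6548 and 10044 CPM over the DN1 plates and to between 461 and 949 over the DN2-3 plates. The 13 NK markers summed to 8386 CPM in WT DN1 and to between 1197 and 9713 over the DN2-3 plates, where Ncr1 and Eomes were at 0 on all 5 plates and Gzma alone made up most of the highest sum. A comparison of the gates is therefore also a comparison of cell types, and fewer cells of a type and less RNA per cell cannot be told apart in a plate's sum.

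Fos (chr12:85473890-85477273, plus strand) encodes the inducible partner of Jun in AP-1. In DN1 it stood at 165 CPM in WT, 452 in Tcf7-/- and 142 in Vav-cre. In DN2-3 it stood at 141 CPM in WT, 14.6 in Tcf7-/-, 101 in Vav-cre, and 29.9 and 35.4 on the Lck-cre plates. The order of the 8 plates thus had Tcf7-/- at both ends, highest in DN1 and lowest in DN2-3. Vav-cre DN1 and WT DN2-3 did not differ beyond their counting intervals, 123 to 162 and 131 to 152 CPM. Fosb (chr7:19302696-19310051, minus strand), a close relative that pairs with the same Jun proteins, had a similar outline. Its level was 39.5 CPM in the DN1 cells of WT, 155 in those of Tcf7-/- and 36.2 in those of Vav-cre. On the DN2-3 plates it was 48.6 CPM in WT, 8.96 in Tcf7-/-, 14.1 in Vav-cre, and 11.5 and 8.90 in Lck-cre. WT DN2-3 and the 3 DN1 plates all lay above the 4 DN2-3 plates of the other genotypes. Of the remaining Fos genes, Fosl2 stood at 25.2 to 38.9 CPM in DN1 and at 0 to 2.97 in DN2-3, and Fosl1 was listed at 0 on all 8 plates.

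Jun (chr4:95049034-95052222, minus strand), the partner whose pairing with Fos gives the most active AP-1, stood at 66.4 CPM in the DN1 cells of WT, 124 in those of Tcf7-/- and 67.2 in those of Vav-cre. Among DN2-3 plates it was 161 CPM in WT, 24.7 in Tcf7-/-, 160.0 in Vav-cre, and 46.1 and 59.2 in Lck-cre. WT and Vav-cre DN2-3, whose intervals overlapped, were the highest of the 8 plates and Tcf7-/- DN2-3 the lowest. Junb (chr8:84974484-84978718, minus strand), which can hold Jun activity back, separated the gates instead. It was 277 CPM in the DN1 cells of WT, 197 in those of Tcf7-/- and 147 in those of Vav-cre. No DN2-3 plate came near this: 35.4 CPM in WT, 12.5 in Tcf7-/-, 63.2 in Vav-cre, and 22.7 and 22.8 in Lck-cre. Jund (chr8:70698949-70700616, plus strand), the family member usually present in resting cells, had the narrowest spread of the 3. It ran from 43.035 to 82.1 CPM in DN1, highest in WT, and from 14.8 in Tcf7-/- to 61.1 in WT in DN2-3, with 41.8 in Vav-cre and 19.96 and 22.6 in Lck-cre. Jun, Junb, Jund, Dusp1, Zfp36 and Zfp36l2 each overlap another gene on the opposite strand in GENCODE vM21 (Prdx2 for Junb and Ergic1 for Dusp1 are protein-coding). Dusp1 also overlaps a pseudogene, AC122252.4, and a transcript within an intron, AC122252.1, on its own strand. Whether counting used strand is not given in the sources used here.

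Ier2 (chr8:84661331-84662852, minus strand), a small nuclear protein induced with Fos, was higher in DN1. It stood at 299 CPM in the DN1 cells of WT, 303 in those of Tcf7-/- and 292 in those of Vav-cre. The DN2-3 plates read 44.8 CPM in WT, 51.4 in Tcf7-/-, 64.6 in Vav-cre, and 56.8 and 68.7 in Lck-cre. The 3 DN1 plates did not differ beyond their counting intervals, and all 3 lay far above the 5 DN2-3 plates, which differed among themselves (39.1 to 51.1 CPM as the interval of WT and 62.1 to 75.7 as that of Lck-cre plate 2). Egr1, which turns growth factor and receptor signals into transcription, was highest in Tcf7-/- DN1. It read 37.4 CPM in the DN1 cells of WT, 96.4 in those of Tcf7-/- and 27.1 in those of Vav-cre, and 20.7 in WT, 5.85 in Tcf7-/-, 12.6 in Vav-cre, and 8.18 and 34.6 in Lck-cre DN2-3. The 2 Lck-cre plates differed 4.23-fold in Egr1 (interval 3.09 to 5.88), the widest gap between them of any of the 10 genes with at least 10 CPM. Of the other Egr genes, Egr2 and Egr3 reached 7.59 and 10.8 CPM at most and Egr4 was listed at 0 on all 8 plates.

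Dusp1 (chr17:26505590-26562128, minus strand) broke the split between gates. The span given for Dusp1 is 56539 bases and holds the promoter window shown above, which was placed by the RefSeq start. Dusp1 stood at 179 CPM in the DN1 cells of WT, 111 in those of Tcf7-/- and 98.9 in those of Vav-cre. In DN2-3 it was 14.3 CPM in WT, 21.4 in Tcf7-/-, 157 in Vav-cre, and 44.01 and 20.03 in Lck-cre. Vav-cre was the only DN2-3 plate within the DN1 range. Zfp36 (chr7:28376784-28380253, minus strand), which encodes tristetraprolin, was almost confined to DN1 in these plates, with 122 CPM in WT, 98.6 in Tcf7-/- and 64.6 in Vav-cre. The DN2-3 plates had 0.201 CPM in WT (1 count), 4.78 in Tcf7-/-, 10.3 in Vav-cre, and 8.67 and 0.514 (3 counts) in Lck-cre. Zfp36l2 (chr17:84183931-84187947, minus strand), a related decay factor, was not lower in DN2-3 than in DN1 in WT. It was 328 CPM in the DN1 cells of WT, 232 in those of Tcf7-/- and 165 in those of Vav-cre. Its highest level of all was 433 CPM in WT DN2-3, followed in that gate by 245 and 139 in Lck-cre, 89.9 in Vav-cre and 62.5 in Tcf7-/-. Every DN2-3 plate of another genotype thus lay below WT.

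**Figure D1:**
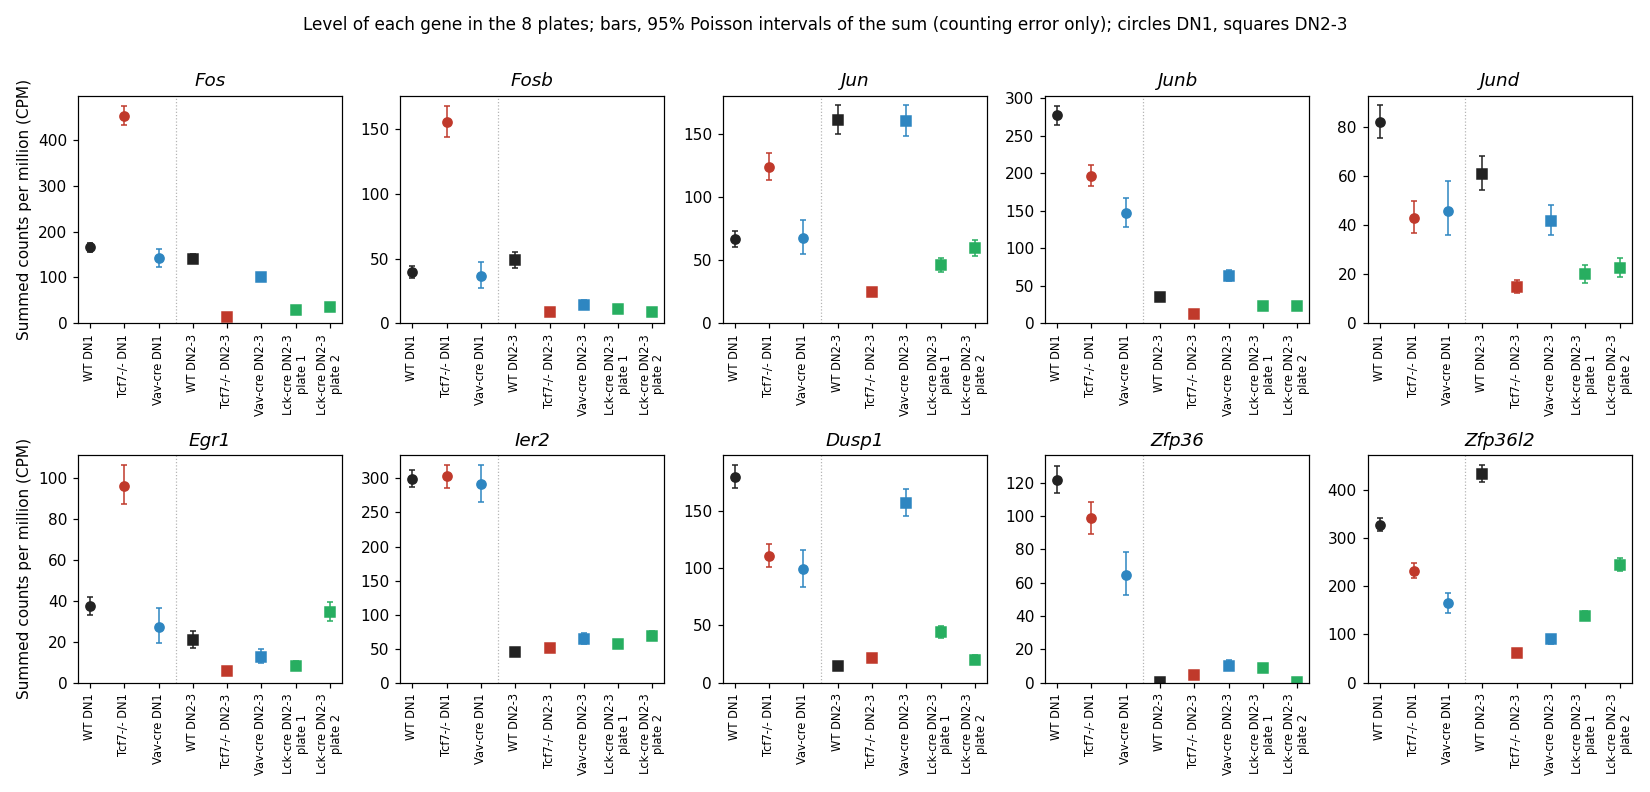
Level of each of the 10 genes in each plate, in CPM of the plate's summed counts on an axis that starts at 0. Circles are DN1 and squares DN2-3 plates, black WT, red Tcf7-/-, blue Vav-cre and green Lck-cre, and bars are 95% Poisson intervals of the sum. Junb, Ier2 and Zfp36 are higher on all 3 DN1 plates than on all 5 DN2-3 plates, whereas Fos, Fosb and Egr1 peak in Tcf7-/- DN1.

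Between the WT gates, Junb, Ier2, Dusp1 and Zfp36 were at least 2-fold lower in DN2-3 than in DN1, and Jun was at least 2-fold higher. The background for these counts is the share of all genes at 10 CPM or more in either plate that passed the same fold, here 11.7% lower and 16.3% higher. The log2 ratios were -2.66 for Junb, -2.50 for Ier2, -2.96 for Dusp1 and 1.16 for Jun, and the median over the 10 genes was -0.50 against 0.15 over all genes. For Zfp36 the ratio of 1 count to 865 was 0.00165 after scaling, with a counting interval of 4.18e-05 to 0.00923. Fos, Fosb, Jund, Egr1 and Zfp36l2 differed by less than 2-fold between the WT gates. Junb, Ier2 and Zfp36 were thus lower in DN2-3 by far more than the yardstick of the Lck-cre pair. Within the plates labelled Tcf7-/- all 10 genes were at least 2-fold lower in DN2-3 than in DN1, from -1.10 for Jund to -4.23 for Fos (background 17.1% lower, 8.14% higher), with a median of -2.55 against -0.12 over all genes. Within Vav-cre 3 genes were lower, Ier2 at -2.02, Zfp36 at -1.88 and Junb at -1.10, and Jun was higher at 1.14 (background 24.7% lower, 15.9% higher). The gate difference of Jun thus pointed one way in WT and Vav-cre and the other in Tcf7-/-. The ILC marker sums were lower in DN2-3 in each of these genotypes. The NK marker sums went from 8386 CPM in DN1 to 1564 in DN2-3 in WT and from 6727 to 2882 in Tcf7-/-. In Vav-cre the NK sum went the other way, from 3928 to 9713 CPM, of which Gzma made up most. Of 11 measured NK markers, 10 were 2-fold lower in Vav-cre DN2-3 and 1 higher. The part of these cell types in the gate differences was not tested.

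**Figure D2:**
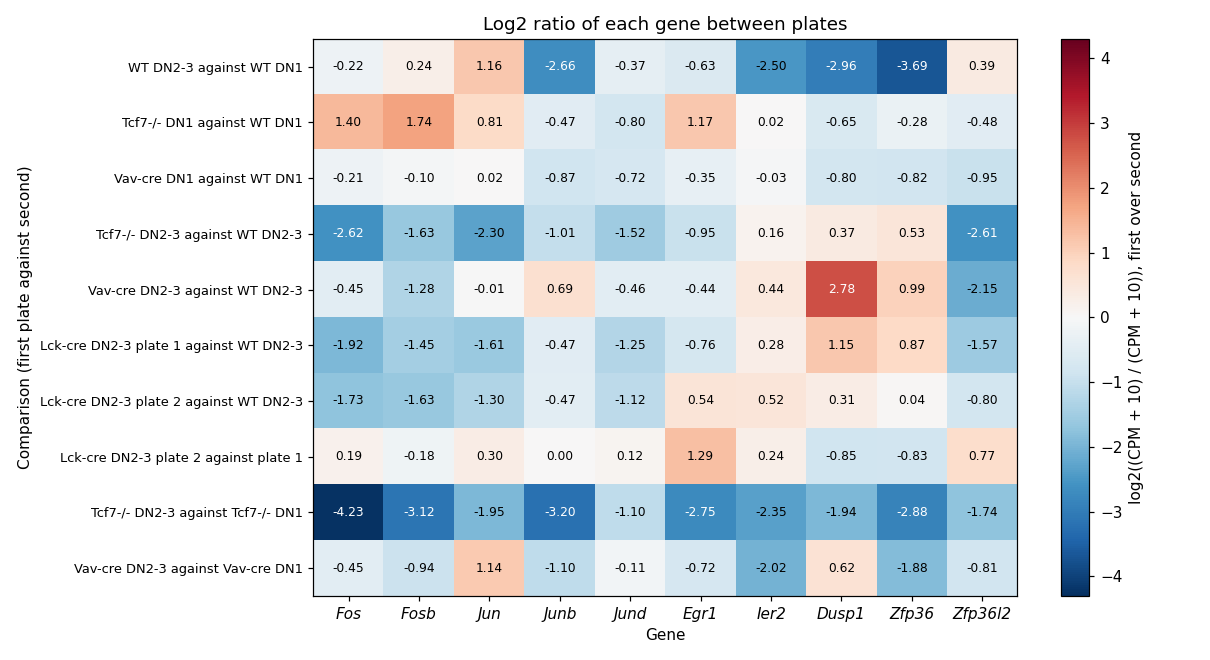
Log2 ratio of each gene (columns) in the 10 comparisons between plates (rows), after adding 10 CPM to both levels; red is higher and blue lower in the first plate. The row of Tcf7-/- DN2-3 against Tcf7-/- DN1 is negative in every column, from -1.10 to -4.23.

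In the DN1 gate, Fosb, Fos and Egr1 were at least 2-fold higher in Tcf7-/- than in WT, and none of the 10 was 2-fold lower (background 10.4% higher, 5.34% lower). The ratios of the summed levels were 3.93 for Fosb (interval 3.41 to 4.54), 2.74 for Fos (2.54 to 2.94) and 2.58 for Egr1 (2.20 to 3.02), and Jun stood at 1.87 (1.64 to 2.12). Junb, Jund, Dusp1 and Zfp36l2 were lower by less than 2-fold, and Ier2 was level at 1.01 (0.944 to 1.09). The median over the 10 was -0.13 on the log2 scale, against 0.07 over all genes, so the higher genes were a subset.

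That subset rested on few cells. Cells were clustered without the 10 genes, the related gene lists given further on or Tcf7, and 1 cluster carried early progenitor markers (Kit, Flt3, Cd34, Spi1, Lyl1, Lmo2, Mpo, Hhex and Bcl11a) and was called early progenitor-like. It held 17 of the 96 Tcf7-/- DN1 cells, or 17.7%, 5 of 58 Vav-cre DN1 cells and 1 of 86 WT DN1 cells. That is at clustering resolution 1, used for the shares and ratios below. The cluster of that name held 17 Tcf7-/- DN1 cells at resolution 2 but 39 at resolution 0.5. At resolution 1 another 22 Tcf7-/- DN1 cells formed an unnamed cluster. They were shallow, with a median of 5496 counts, and held 3.27% of the plate's counts. Those 17 cells held 68.6% of the plate's Fos counts, 74.8% of Fosb, 81.6% of Jun, 75.8% of Egr1, 74.8% of Dusp1 and 53.3% of Zfp36l2. They were deep cells and held 36.9% of all counts of the plate. Ier2 at 37.3% and Zfp36 at 36.8% stood at that share, and Junb at 15.4% and Jund at 15.1% below it. In them Fos stood at 841 CPM, against 165 in the NK-like and 264 in the ILC-like cells of the same plate. A single cell of this cluster, with 150811 counts, led the plate in 5 of the 10 genes: it held 49.9% of Jun, 42.2% of Fos, 40.1% of Egr1, 37.9% of Fosb and 37.2% of Dusp1, and 23.7% of all counts of the 10 genes. The cell had 0 counts of Jund and 5 of Ier2.

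**Figure D3:**
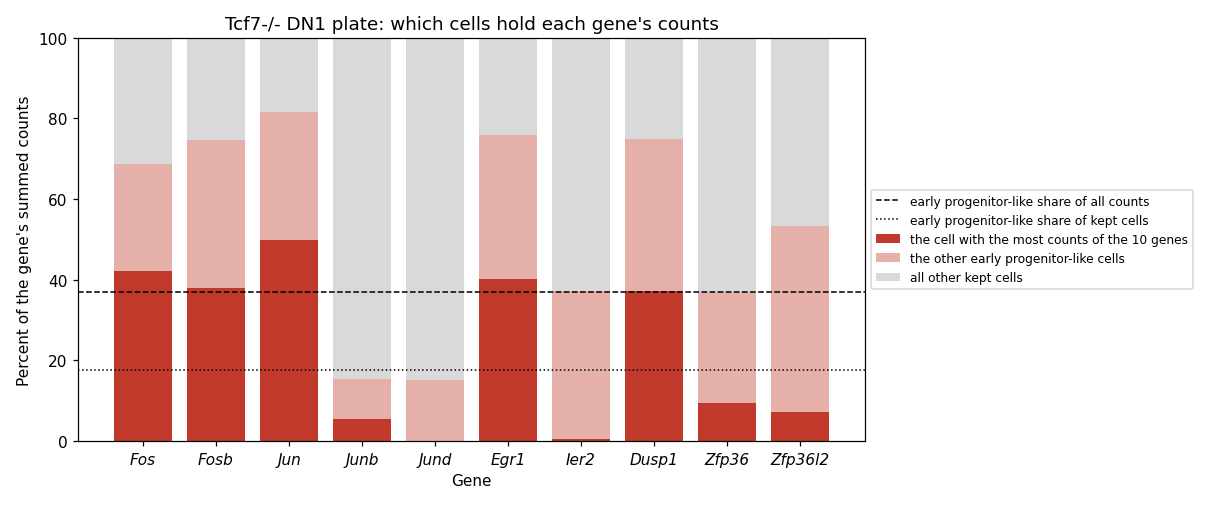
Share of each gene's summed counts on the Tcf7-/- DN1 plate, in percent, held by the single cell with the most counts of the 10 genes (dark red), by the other early progenitor-like cells (light red) and by all other cells (grey). The dashed line is that cluster's 36.9% share of all counts and the dotted line its 17.7% share of the cells. Fos, Fosb, Jun, Egr1, Dusp1 and Zfp36l2 lie above the dashed line, Ier2 and Zfp36 at it, and Junb and Jund below both lines.

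Leaving these cells out altered the values. Without the 1 cell with the most counts of the 10 genes on each plate, Fosb stayed 2-fold higher in Tcf7-/- DN1 at a log2 ratio of 1.10, while Fos was at 0.84, Egr1 at 0.51 and Jun at 0.05, and Dusp1 became 2-fold lower at -1.18. Without the early progenitor-like cluster no gene was 2-fold higher: Fos was at 0.83, Fosb at 0.53, Egr1 at 0.03, Jun at -0.53 and Dusp1 at -1.83. Both were chosen after the data were seen. Within the NK-like cells, 25 in Tcf7-/- and 74 in WT, the median over the 10 genes was -0.22, with Fos at 0.97 and Dusp1 at -1.91. In the ILC-like cells Fos was lower in Tcf7-/-, at 264 CPM in 29 cells against 371 in the 7 of WT. Of the 409 Fos counts of those 7 cells, 1 cell held 173. Fos was counted in 57.1% of them and in 62.1% of the Tcf7-/- ILC-like cells. Over the plate without the progenitor-like cells Fos was thus higher in Tcf7-/- by less than 2-fold. By summed counts this held in the NK-like and not in the ILC-like cells, while over that plate Egr1 was about level and Jun lower.

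Vav-cre DN1 had no gene 2-fold from WT in either direction (background 18% higher, 9.64% lower). Fos, Fosb, Jun and Ier2 had ratios of 0.856, 0.916, 1.01 and 0.975, of which only that of Fos had an interval that left out 1 (0.738 to 0.990). Zfp36l2, Junb, Zfp36, Dusp1 and Jund were lower, at ratios of 0.503, 0.530, 0.531, 0.551 and 0.559, and the median log2 ratio was -0.54 against 0.13 over all genes. Without the cell with the most counts of the 10 genes on each plate, Dusp1 was 2-fold lower at -1.24. Without the early progenitor-like cells, Zfp36 at -1.60, Dusp1 at -1.30 and Zfp36l2 at -1.09 were 2-fold lower. Within the NK-like cells 7 of the 10 genes were 2-fold lower in Vav-cre than in WT and the median was -1.33, but only 9 Vav-cre cells fell there. ILC-like cells made up 68.97% of the Vav-cre DN1 plate, 30.2% of Tcf7-/- and 8.14% of WT, and NK-like cells 15.5%, 26.04% and 86.05%. In Vav-cre ILC-like cells the 10 genes summed to 1016 CPM, against 1251 in those of Tcf7-/- and 1638 in the 7 of WT. The part of these cell types in the plates' sums was not tested.

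In the DN2-3 gate, 6 of the 9 genes that reached 10 CPM in either plate were at least 2-fold lower in Tcf7-/- than in WT, and none was 2-fold higher (background 10.5% lower, 3.19% higher). These were Fos, Zfp36l2, Jun, Fosb, Jund and Junb, at ratios of 0.103 (0.0846 to 0.126), 0.144 (0.131 to 0.159), 0.154 (0.131 to 0.179), 0.184 (0.140 to 0.240), 0.242 (0.195 to 0.300) and 0.355 (0.276 to 0.454). Both Fos genes and all 3 Jun genes were among them. Egr1 stood just short of 2-fold on the log2 scale with the added 10 CPM, at -0.95 (and at -0.31 with the top Egr1 cell of each plate removed), and Ier2 and Dusp1 were not lower, at ratios of 1.15 (0.973 to 1.35) and 1.499 (1.13 to 2.002). The median over the 10 genes was -1.26, against -0.17 over all genes. Zfp36 had 40 counts in Tcf7-/- and 1 in WT and did not reach 10 CPM in either.

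The Lck-cre plates had the same 4 genes lower than WT on both: Fos at log2 ratios of -1.92 and -1.73, Fosb at -1.45 and -1.63, Jun at -1.61 and -1.30, and Jund at -1.25 and -1.12. Zfp36l2 was lower at -1.57 on plate 1 and at -0.80 on plate 2. Dusp1 was higher at 1.15 on plate 1 and stood at 0.31 on plate 2. Of 9 genes at 10 CPM or more, 5 were 2-fold lower and 1 higher on plate 1 (background 5.79% lower, 2.19% higher), and 4 lower and 0 higher on plate 2 (5.33% lower, 2.02% higher). Between the 2 Lck-cre plates Egr1 was 2-fold higher on plate 2 and no gene was 2-fold lower (background 2.8% higher, 2.59% lower), and Fos, Fosb, Jun, Junb and Jund differed by at most 0.30 on the log2 scale. The differences of Fos, Fosb, Jun and Jund from WT were thus larger than the difference between plates of one label. Tcf7-/- and Lck-cre are compared here with the same WT plate.

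Vav-cre DN2-3 stood apart from both. Its Jun was level with WT at a ratio of 0.994 (0.897 to 1.10), Fos was at 0.714 (0.633 to 0.806), and Dusp1 was 10.99 times WT (8.60 to 14.2). Fosb and Zfp36l2 were 2-fold lower, at ratios of 0.291 (0.216 to 0.386) and 0.207 (0.186 to 0.231), and Dusp1 was the 1 gene of 10 that was 2-fold higher (background 10.5% lower, 5.77% higher). Dusp1 had counts in 69.7% of Vav-cre DN2-3 cells and in 10.2% of WT cells, and in 47.7% and 7.5% after each cell was thinned to 10000 counts. The highest cell held 11.9% of the Dusp1 counts of Vav-cre, and without it and the highest WT cell the log2 ratio was 2.86, against 2.78 with them. The haemoglobin genes Hbb-bs, Hba-a1 and Hba-a2 were among the leading genes of the cluster that held 65 of the 76 Vav-cre DN2-3 cells. The 9 erythroid and mast cell markers summed to 944 CPM on that plate against 551 in WT, but they did not move together. Cpa3 made up most of the WT sum, at 482 CPM, and stood at 50.4 in Vav-cre. Of the 5 markers measured, 4 were 2-fold higher in Vav-cre and 1 lower. The part of these markers in the Dusp1 difference was not tested.

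**Figure D4:**
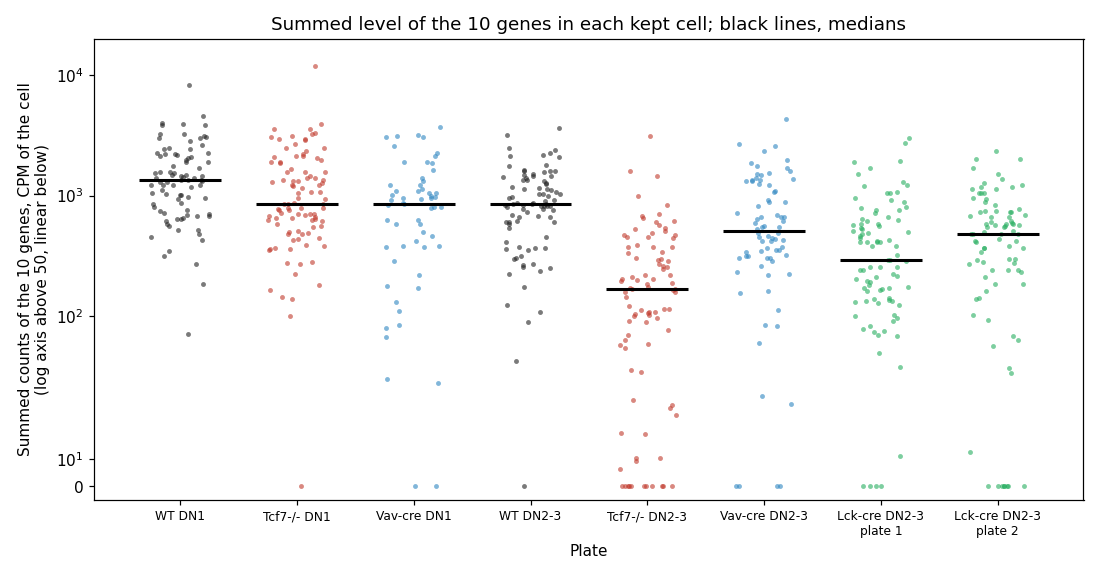
Summed counts of the 10 genes in each kept cell, in CPM of that cell, by plate; each point is a cell and black lines are medians, on an axis that is logarithmic above 50 and linear below. The median is 166 CPM for Tcf7-/- DN2-3 and 1350 for WT DN1, and 11 Tcf7-/- DN2-3 cells lie at 0.

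Seen cell by cell, the 10 genes together took a median of 1350 CPM of a WT DN1 cell, 851 of a Tcf7-/- DN1 cell and 855 of a Vav-cre DN1 cell. The DN2-3 medians were 854 CPM in WT, 166 in Tcf7-/-, 511 in Vav-cre, and 294 and 482 in Lck-cre. The low sum of Tcf7-/- DN2-3 was therefore a matter of most cells and not of a few: the upper quartile there, 371 CPM, lay below the lower quartile of WT DN2-3, 520 CPM. At 10000 counts a cell, 25.8% of Tcf7-/- DN2-3 cells had none of the 10 genes, against 2.5% of WT, 12.3% of Vav-cre, and 18.8% and 13.5% of Lck-cre DN2-3 cells. In DN1 the same share was 1.23% in WT, 2.74% in Tcf7-/- and 4.08% in Vav-cre. Cells with 4 or more of the genes made up 56.8%, 47.9% and 34.7% of the WT, Tcf7-/- and Vav-cre DN1 cells. In DN2-3 they made up 22.5% in WT, 4.49% in Tcf7-/-, 29.2% in Vav-cre, and 5.88% and 8.11% in Lck-cre. Thinning left out between 4 and 23 cells a plate.

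Counts of a single gene were spread unevenly over cells. For Fos, the number of cells that together held 50% of a plate's counts was between 2 and 5 on all 8 plates, and for Egr1 between 1 and 4. Ier2, Junb and Jund were spread more widely, with 13, 11 and 10 cells in WT DN1. A single WT DN2-3 cell held 66.99% of the plate's Egr1, and with each plate's top Egr1 cell removed the gene was 2-fold lower in DN2-3 than in DN1 at -1.22. In DN1 the share of cells with a Fos count after thinning was 28.4% in WT, 46.6% in Tcf7-/- and 26.5% in Vav-cre. In DN2-3 it was 31.2% in WT, 6.74% in Tcf7-/-, 18.5% in Vav-cre, and 10.6% and 13.5% in Lck-cre. Fos was thus found in more Tcf7-/- DN1 cells than in WT DN1 cells, and in fewer Tcf7-/- DN2-3 cells than in WT DN2-3 cells.

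Clusters placed the DN2-3 differences next to cell state. Tcf7-/- and WT DN2-3 cells had no cluster in common with 9 or more cells from each at clustering resolution 1, whereas at resolution 0.5 they shared 1, with 60 WT and 10 Tcf7-/- cells. Of the Tcf7-/- cells, 57 lay in a cluster led by genes of mitosis such as Birc5, Top2a and Cdk1, and 24 in a DN3-like cluster with Ptcra, Rag1, Rag2, Notch1 and Dtx1. The 10 genes summed to 155 CPM in the first and 296 in the second, and Fos stood at 9.92 and 2.93 CPM. The mitotic cluster also held 18 and 12 Lck-cre cells, where the 10 genes summed to 195 and 233 CPM, lower than in the other Lck-cre clusters with 9 or more cells (409 to 837 on plate 1 and 528 to 760 on plate 2). In the 3 clusters that WT shared with Lck-cre, Fos was lower in Lck-cre at log2 ratios of -1.23, -3.84 and -1.04 on plate 1 and stood at 0.24, -3.16 and -1.59 on plate 2. Jund was lower in all 6 of these comparisons, from -0.49 to -1.38, and Jun in all 6, from -0.37 to -2.17. Fosb was lower in 2 of the 3 clusters on both plates, from -0.94 to -2.39, and higher in the third, at 0.52 and 0.45. The lower Fos of Lck-cre was thus seen within 2 of the 3 clusters on both plates, and in the third, which held 10 WT cells, on plate 1 only. Few cells lie behind these ratios. Those of -3.84 and -3.16 came from 1 Fos count in 11 cells of plate 1 and 12 in 18 of plate 2. WT had 364 counts in 44 cells there. Those of -1.04 and -1.59 came from 155 counts in 41 cells and 71 in 31, against 165 in 27 WT cells. Zfp36l2 was highest in the cluster with Cpa3, Ephb2 and Myb among its leading genes, at 663 CPM in WT and 437 and 445 in Lck-cre. The 10 genes summed there to 1238 CPM in WT and 837 and 760 in Lck-cre.

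**Figure D5:**
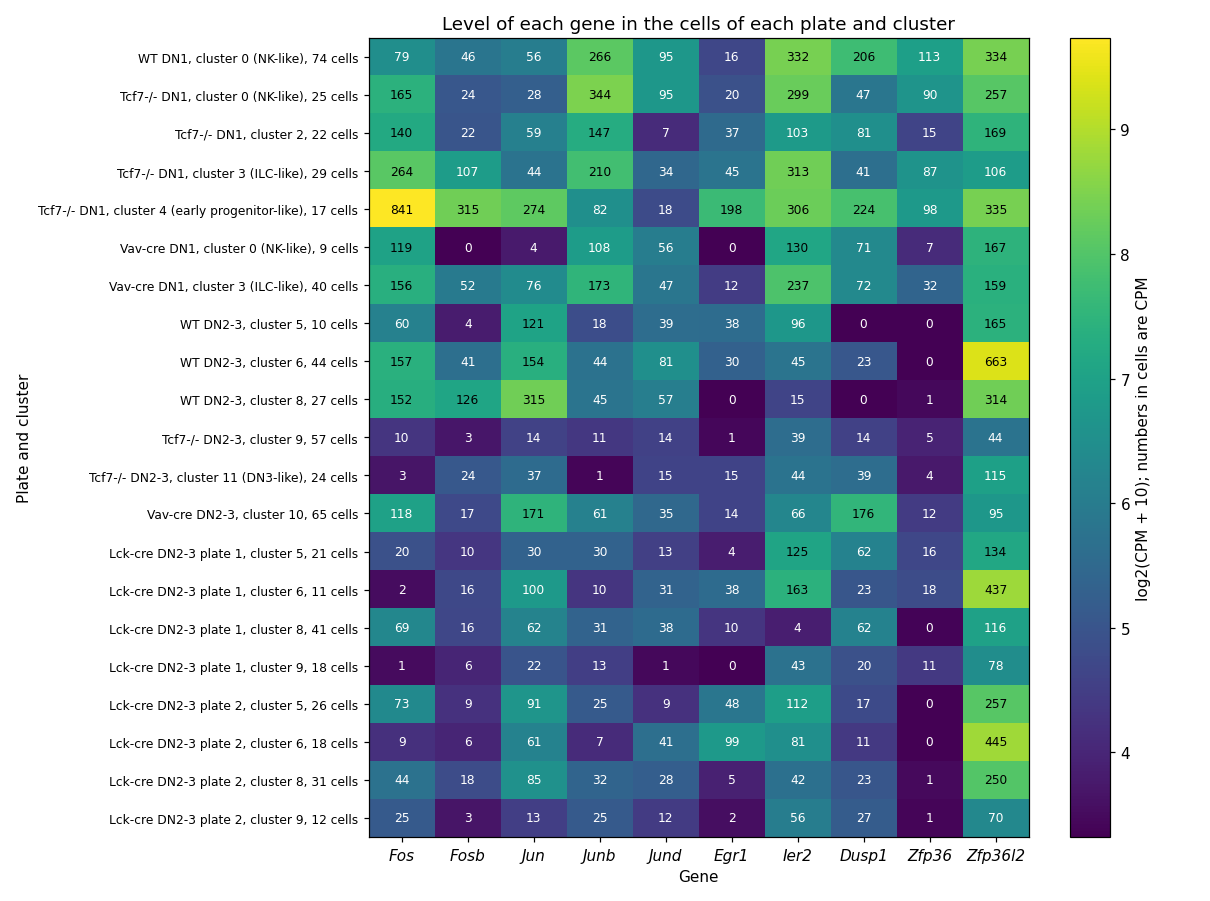
Level of each gene, as CPM of the summed counts (numbers) and log2(CPM + 10) (colour), in the cells of each plate and cluster with at least 9 cells. Fos, Fosb and Egr1 are brightest in the 17 early progenitor-like cells of Tcf7-/- DN1, Jun is brighter still in 27 WT DN2-3 cells (315 against 274 CPM), and the Tcf7-/- DN2-3 and mitotic Lck-cre rows are dark from Fos to Egr1.

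Other genes of the same system were counted from lists chosen with earlier results of these data known. Of 32 other immediate-early genes, 22 reached 10 CPM in the WT gates. Of these, 6 were 2-fold lower in DN2-3 and 0 higher (background 11.7% lower, 16.3% higher). Klf2, Cited2, Ier5 and Btg1 were lower by the most. Klf2, a factor of resting lymphocytes, was at 160 CPM in DN1 and 16.3 in DN2-3, and Btg1, an antiproliferative gene, at 551 and 155. Between Tcf7-/- and WT DN2-3, 2 of 19 were lower and 2 higher (background 10.5% lower, 3.19% higher). The most distant of them were Cd69, an activation marker, at 16.5 CPM against 106, and Pim1, a growth kinase, at 148 against 33.4. Cd69 was also low on Lck-cre plate 1, at 13.1 CPM, and not on plate 2, at 75.8. Between Tcf7-/- and WT DN1, 3 of 23 were higher and 3 lower (background 10.4% higher, 5.34% lower). Among the higher, Gadd45b, a stress sensor, was at 65.6 CPM against 3.09 and Pim1 at 137 against 36.1. Both were also 2-fold higher than WT in Vav-cre DN1, at 78.8 and 85.9 CPM. Among the 3 lower in Tcf7-/- DN1 were Ppp1r15a, at 31.98 CPM against 79.7, and Klf2, at 69.96 against 159.7. The lower AP-1 genes of Tcf7-/- DN2-3 were therefore not accompanied by a like shift of the whole immediate-early list, whose median was -0.45 against -0.17 over all genes.

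The inputs and brakes of the pathway were counted in the same way. Of 20 genes of the MAP kinase cascade and its SRF and Elk targets, 18 were measured between Tcf7-/- and WT DN2-3. In that comparison 2 were 2-fold lower and 0 higher (background 10.5% lower, 3.19% higher), with a median of -0.33. Of the 2, Elk3 was at 7.17 CPM against 52.4. Of 10 measured AP-1 and CREB partners of the basic zipper class none passed 2-fold in the same comparison. Between the WT gates 6 of 10 measured feedback inhibitors were lower in DN2-3 and 1 higher (background 11.7% lower, 16.3% higher). Among the lower was Dusp2, a nuclear phosphatase of MAP kinases, at 70.7 CPM against 593. Dusp6, another phosphatase of that family, was 73.1 CPM in Tcf7-/- DN1 and 30.6 in WT DN1, and Dusp10 was 54.9 CPM in Tcf7-/- DN2-3 and 15.3 in WT DN2-3. Batf3, a small AP-1 partner, was 76.7 and 142 CPM in Tcf7-/- and Vav-cre DN1 and at 0 counts in WT DN1.

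Heat shock genes, which handling and warming of tissue also raise, were set beside the 10 genes. Their sum is no measure of stress between the gates, which held different cells. Its largest parts in WT DN2-3 were Hsp90ab1 at 4425 CPM, Hsp90aa1 at 2195 and Hspa8 at 1743. The 16 heat shock genes summed to 6385 CPM in the DN1 cells of WT, 8017 in those of Tcf7-/- and 5593 in those of Vav-cre. In DN2-3 they summed to 11388 CPM in WT, 11162 in Tcf7-/-, 9970 in Vav-cre, and 10420 and 10157 in Lck-cre. The strongly inducible Hspa1a and Hspa1b were at 1.15 CPM or less on all 8 plates apart from Hspa1b in WT DN2-3, at 6.23, and Atf3, an immediate-early stress gene, was at 0 on 7 plates and at 6.75 CPM in WT DN1. The sum of the 16 genes was higher on every DN2-3 plate than on any DN1 plate. Between Tcf7-/- and WT DN2-3, 0 of 12 measured heat shock genes passed 2-fold (background 10.5% lower, 3.19% higher), with a median of -0.05. Among DN1 plates the sum was highest in Tcf7-/-. How long each sample was held before sorting is not given in the sources used here, and the part of handling in the levels of the 10 genes was not tested.

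Genes that went with the 10 from cell to cell were sought within each plate. Over 2605 genes detected in 20% or more of the cells on every plate, the mean correlation over the 8 plates with the mean log2(CPM/10 + 1) of the 10 genes was highest for Klf6 (0.22), Ypel3 (0.22), Baz2b (0.19), Slc44a2 (0.19), Clk1 (0.18), Prkacb (0.18), Rcc2 (0.18) and Nfkbia (0.17). The median over all 2605 was 0.05. Klf6, an immediate-early zinc-finger gene, had correlations from 0.13 in WT DN2-3 to 0.35 in Tcf7-/- DN1 and was above 0 on all 8 plates. These values are weak, cells of a plate share library and depth, and in sparse counts they are a description only. Between pairs of the 10 genes the median rank correlation over pairs lay between -0.01 and 0.11 on each plate.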

How the data were processed

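Single thymocytes were sequenced with a modified STRT protocol, per the labels' protocols, which also name Smart-seq2 for the libraries. The submitters' processing notes name TopHat2 2.1.1, HTSeq and mm10 or GRCm38, and list mm10 alone for the Tcf7-/- plates. Whether counting used strand or collapsed molecular tags is not given in the sources used here. The values used are the raw counts per gene and cell that the authors deposited. The authors also deposited log2 values, proportional to the counts after back-transformation within 0.157%, which served as an alternative.

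A cell was kept where 1000 genes or more were detected (675 of 768), and no 2 cells had identical columns. The same 96 barcode numbers occur on every plate and name cells within it. Of 23154 entries, 27 were dates in place of symbols, with 0.141% of counts, and were left out. Counts were summed per plate, scaled to CPM and compared as log2 ratios after adding 10 CPM (numpy 2.4.6, pandas 2.3.3, scipy 1.17.1), with exact Poisson or binomial 95% intervals that cover counting error only. Past 2-fold is called higher or lower. The background was planned over genes at 50 CPM or more but counted over genes at 10 CPM or more, as for the members; at 50 CPM the shares ran from 0.835% to 24.1%. Cells were clustered with scanpy 1.11.5 (Leiden, resolution 1). Doublets were not called. The script for ratios was run on simulated counts with known folds, which checks the arithmetic only. edgeR 4.0.16 and DESeq2 1.42.0 gave only alternative scalings.

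The 10 members and the gene lists were chosen with earlier results of these data known. All 10 members are named; of each other list, up to 4 genes with the largest ratio among those at 50 CPM or more and past 2-fold; and the 8 genes most like the members. Fosl1, Fosl2, Egr2, Egr3, Egr4, Atf3, Hspa1a and Hspa1b, and genes named for a cluster or gate, were chosen after their values were seen. Alternatives are given in the closing section.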

Additional observations from a re-analysis of the deposited data

Results flagged for a closer look

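Fos differed in direction between the gates: Tcf7-/- against WT was 1.40 on the log2 scale in DN1 and -2.62 in DN2-3, a gap of 4.02. For Fosb the same values were 1.74 and -1.63, a gap of 3.37. Jun differed in direction between genotypes: DN2-3 against DN1 was 1.16 in WT and -1.95 in Tcf7-/-, a gap of 3.11. With 1 plate per genotype and gate, none of these differences was tested.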

How the results depend on the processing

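Each of the 10 comparisons was recomputed under 11 alternatives, and of 100 member ratios 42 were past 2-fold, of which 0 changed sign. No paired analysis was possible because no result comes from a test, and the numbers that plates share are barcodes of single cells. The median log2 ratio moved by more than 0.44 in the following cases, and the cause was not tested. That is the SD of a single gene on a single plate, from the Lck-cre pair; it is a descriptive limit and no error of a median. Over members at 50 CPM or more it was -1.44 between the WT gates, -2.30 for Tcf7-/- against WT DN2-3, and -1.57 and -1.12 for Lck-cre plates 1 and 2 against WT. With 1 CPM added it was -1.82 for Tcf7-/- against WT DN2-3 and -3.18 between the Tcf7-/- gates. With the deposited log2 values it was -0.66 for Tcf7-/- against WT DN2-3, -0.46 for Lck-cre plate 1, -1.03 between the Tcf7-/- gates and -0.26 between the Vav-cre gates. Between the Tcf7-/- gates it was -1.95 with cells weighted equally and -2.06 with cells thinned. Vav-cre against WT DN2-3 ranged from -0.24 to 0.16. TMM scaling moved the median of all genes by between -0.16 (Vav-cre against WT DN1) and 0.19 (Tcf7-/- against WT DN2-3). Leaving out either Lck-cre plate, the mean of their medians ranged from -1.001 to -0.63.

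Counts of 2-fold genes ranged from 0 to 3 higher for Tcf7-/- against WT DN1, 0 to 4 lower for Vav-cre against WT DN1, 3 to 7 lower for Tcf7-/- against WT DN2-3, 3 to 6 and 2 to 4 lower for Lck-cre plates 1 and 2, and 5 to 10 lower between the Tcf7-/- gates. Leaving out the early progenitor-like cells or the highest cell of each plate was chosen after seeing the data. Within NK-like cells at clustering resolutions 0.5 and 2 the median was -0.08 and -0.10 for Tcf7-/- and -1.26 and -1.20 for Vav-cre. The limits are 1 plate per genotype and gate, no named animals, 1547512 counts in Vav-cre DN1, and genes held by few cells.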
